A study of Mus musculus with 6 samples.

Results

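The transcripts described here are 40 genes used as markers of macrophages and other myeloid cells, from the growth factor that maintains macrophages to complement C1q, Fc receptors, lysosomal proteins and the genes of major histocompatibility complex (MHC) class II. They were chosen by gene name, with earlier results of these data known, and all 40 were found among the 54532 genes of the RNA-seq table. The samples were primary cardiomyocytes from the hearts of newborn mice (aged 1 to 3 days) whose Rit1 locus carries an engineered M90I variant that stays silent until Cre recombinase acts on it. RIT1 is a RAS-related GTPase, and M90I is a pathogenic variant of it. Adenovirus was added on day 3 after isolation and encoded GFP alone (AdGFP, genotype Rit1 +/+ in the labels, 3 samples) or both GFP and Cre (AdCre, genotype Rit1 M90I/+, 3 samples), and RNA was taken on day 6 after infection. The AdCre cells differ from the AdGFP cells both in the recombinase and in the variant, which cannot be told apart here, and no wild-type cells with AdCre are among the samples. Before culture, the digested hearts had been left on plastic so that cells that stick to it stayed behind, and the cells that had not attached were plated on laminin. The replicates are called biological and numbered 1 to 3 in both groups, and the labels do not say which animals or litters a number stands for.

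Macrophages are phagocytes that settle in the heart before birth and are replenished there by division and from circulating monocytes. The growth factor CSF1 is made largely by stromal cells and binds CSF1R on macrophages, which depend on it to survive, and the transcription factor PU.1 (Spi1) sets up the myeloid program. Macrophages take up dying cells and immune complexes through scavenger and Fc receptors, signal through adaptors with an ITAM (immunoreceptor tyrosine-based activation motif), secrete C1q, degrade their cargo in lysosomes and, in some states, present peptides on MHC class II.

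The sequences upstream of 5 genes are shown, because 4 of these genes are the ones that passed the test under the paired fit described below (C1qb, Lyz2, Csf1 and Gpnmb) and C1qc is the neighbor of C1qb with a like pattern over the samples. Each is the run of 250 bases before the start of the gene in RefSeq (GRCm38.p6), read 5′ to 3′ on the strand of the gene. In the GENCODE annotation, which gave the other coordinates, C1qc starts at 136893065 and Lyz2 at 117282321. Part of these 2 runs therefore lies inside the gene by that annotation. Capitals mark AGGAAGT or its reverse complement ACTTCCT, the core letters of many PU.1 sites.
C1qb, chr4:136886201-136886450, minus strand: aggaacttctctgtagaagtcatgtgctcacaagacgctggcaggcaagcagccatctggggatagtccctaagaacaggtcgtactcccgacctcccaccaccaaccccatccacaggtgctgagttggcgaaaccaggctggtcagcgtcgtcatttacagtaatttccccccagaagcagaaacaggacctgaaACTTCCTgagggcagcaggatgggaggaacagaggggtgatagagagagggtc
C1qc, chr4:136892915-136893164, minus strand: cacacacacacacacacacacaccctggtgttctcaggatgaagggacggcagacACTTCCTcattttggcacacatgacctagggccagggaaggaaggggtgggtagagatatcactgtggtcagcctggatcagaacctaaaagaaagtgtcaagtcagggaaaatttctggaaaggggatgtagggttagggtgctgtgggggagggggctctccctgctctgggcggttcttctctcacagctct
Lyz2, chr10:117282273-117282522, minus strand: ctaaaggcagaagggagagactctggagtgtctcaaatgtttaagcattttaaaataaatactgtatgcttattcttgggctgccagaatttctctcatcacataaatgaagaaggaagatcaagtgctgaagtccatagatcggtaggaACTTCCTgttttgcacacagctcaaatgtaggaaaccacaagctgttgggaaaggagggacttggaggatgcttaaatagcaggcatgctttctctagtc
Csf1, chr3:107760470-107760719, minus strand: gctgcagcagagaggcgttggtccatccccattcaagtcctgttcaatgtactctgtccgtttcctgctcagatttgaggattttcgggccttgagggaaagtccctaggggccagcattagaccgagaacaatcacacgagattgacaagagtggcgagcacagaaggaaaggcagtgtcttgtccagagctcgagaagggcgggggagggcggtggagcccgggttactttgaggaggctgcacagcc
Gpnmb, chr6:49036268-49036517, plus strand: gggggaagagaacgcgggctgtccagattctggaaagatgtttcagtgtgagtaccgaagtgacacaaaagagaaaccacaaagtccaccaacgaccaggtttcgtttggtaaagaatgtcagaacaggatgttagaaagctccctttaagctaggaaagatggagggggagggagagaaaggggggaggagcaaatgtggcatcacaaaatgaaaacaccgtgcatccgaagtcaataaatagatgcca
The 2 C1q genes and Lyz2 each hold these letters 1 time, and Csf1 and Gpnmb hold none in this run. Over windows from 250 bases before to 50 after the start, which RefSeq gave for 30 of the 40 genes, AGGAAGT was found on either strand in 11 of 30, against 10.7% of all 27025 genes with a window. The 11 are C1qb, C1qc, Cd53, Ctss, Fcgr1, Folr2, Lyz2, Mrc1, Ms4a6c, Pf4 and Ptprc. In all, 7 strings of letters were searched, and the string shown was picked after the counts were seen. The shorter GAGGAA was in 15 of 30 windows (31.3% of all genes) and the longer GAGGAAGT, which overlaps both, in 4 (3.69%). The E box CAGATG was in 6 (19.2%), and the Y box letters of MHC class II promoters were in 2 as CTGATTGG (4.70%), in 3 as the shorter TGATTGG (8.995%) and in 1 when 2 more letters were asked for (0.492%). A match is only a match of letters.

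Expression is given as FPKM (fragments per kilobase of exon, relative to library size), the unit in which the values were deposited, and reads are those worked back from FPKM and exon length. Samples held between 25.3 and 26.5 M reads (AdGFP; M, megareads) and between 25.98 and 32.4 M reads (AdCre). Rit1 itself was at 7.66, 8.99 and 9.01 FPKM in AdGFP 1, 2 and 3 and at 8.90, 9.10 and 9.58 in AdCre 1, 2 and 3, a gene level that does not tell the variant from the normal allele. Of the labelled cell type, 10 cardiomyocyte markers summed to between 2329 and 7699 FPKM, with Actc1 at between 1186 and 4943 FPKM. The sums of 10 fibroblast markers, between 2413 and 4788 FPKM, were of like size and exceeded those of the cardiomyocyte markers in AdGFP 3 and AdCre 3, so the markers do not show a pure culture of cardiomyocytes. Markers of T, B and NK cells, neutrophils and dendritic cells summed to at most 5.78 FPKM in every sample.

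In AdCre, the levels of the macrophage and myeloid genes lay above those of AdGFP for most genes, by a median of 0.42 on the log2 scale, against -0.00 for all 13794 genes tested. Of the 40 genes, 33 reached a mean of 0.5 FPKM over the samples and were tested, and 31 of the 33 had a higher mean of log2(FPKM + 0.1) in AdCre (49.6% of all genes did). On FPKM means, H2-Eb1 and Cd14 were also lower in AdCre, beside Lgmn and H2-Ab1. In the fit with group alone (limma on log2(FPKM + 0.1)), 0 of the 33 passed an adjusted p of 0.05, and 1 had an unadjusted p under 0.05 (Csf1). Of all genes, 0.00725% passed, and 10.2% had an unadjusted p under 0.05. The spread between samples of a group was large for these genes, and same-numbered samples of both groups deviated together across all genes tested (correlations of 0.568, 0.268 and 0.506). Samples of 1 number were therefore treated as pairs, and a second fit had the replicate number as a block. In that fit 4 of the 33 passed (Csf1, Gpnmb, C1qb and Lyz2), all higher in AdCre, where 2.64% of all genes passed in that direction and 6.15% in either. At an unadjusted p under 0.05 there were 20 higher of 33, beside 11.5% of all genes, and 1 lower (H2-Ab1). The blocked calls depended on the samples and the setting. Without replicate 1 of both groups 6 of the 33 passed (Csf1, Gpnmb, Fcgr1, Mrc1, Pf4 and Clec4n, where 5.6% of all genes passed), so that C1qb and Lyz2 did not. Without replicate 2 only H2-Ab1 passed, lower in AdCre (1.08% of all genes), without replicate 3 none of the 33 did (0.00725%), and without the intensity trend 0 of all genes did. On simulated data the blocked fit called more unchanged genes than its threshold allows, so adjusted p-values just under 0.05, such as those of Lyz2 and Gpnmb, are less firm than they read. The number 1 samples were the lowest of both groups for most of these genes, so leaving out 1 of a pair shifted the median. It was -0.17 without AdGFP 1, with 9 of 33 genes above 0, and 0.80 without AdCre 1. Without replicate 1 of both groups it was 0.29. In bulk RNA, fewer cells of a type and less RNA per cell cannot be told apart.

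**Figure D1:**
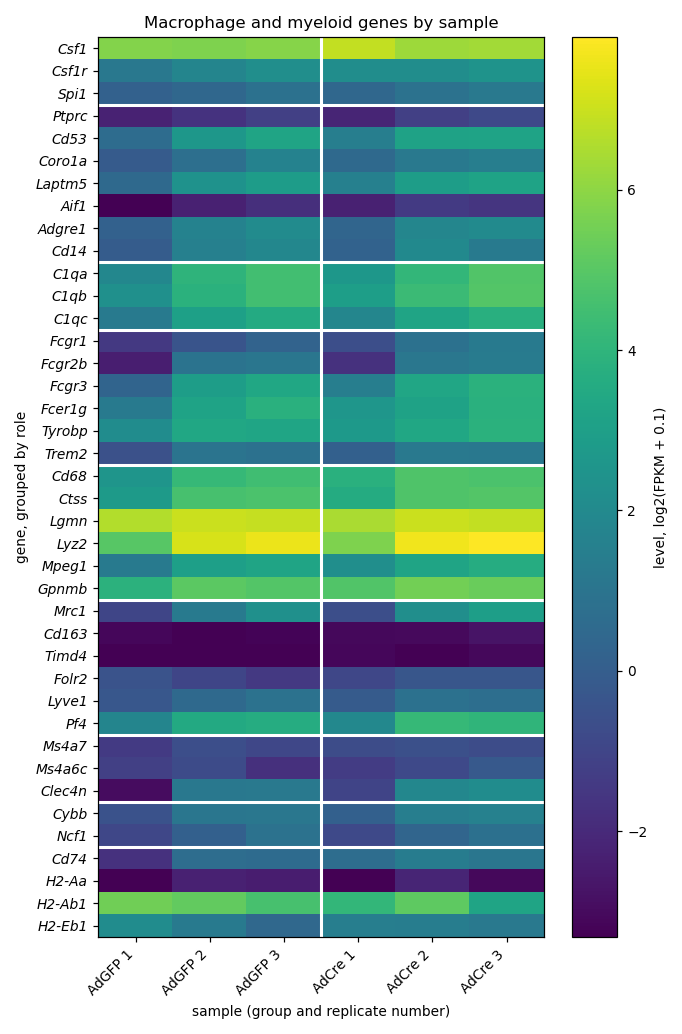
Level of each of the 40 macrophage and myeloid genes (rows, grouped by role with white lines) in each of the 6 samples (columns), as log2(FPKM + 0.1) on the color scale. Columns AdGFP 1 and AdCre 1 are darker than the others in most rows, Lyz2, Lgmn, Csf1, Gpnmb and H2-Ab1 are bright throughout or nearly so, and Timd4, Cd163 and H2-Aa are dark in every sample.

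Of the growth factor, its receptor and the lineage factor, Csf1 showed the clearest difference. Csf1 (chr3:107741048-107760469, minus strand, mm10), which encodes the ligand, was at 56.00, 53.3 and 57.4 FPKM in AdGFP 1, 2 and 3 and at 116, 77.7 and 80.6 FPKM in AdCre 1, 2 and 3. All AdCre samples were above all AdGFP samples, with AdCre 1 the highest, and Csf1 was the only tested gene of the 33 whose groups did not overlap (7.36% of all genes tested were higher in AdCre without overlap). The means were 55.6 ± 2.12 and 91.6 ± 21.6 FPKM (SD, n = 3), and the log2 difference was 0.70 ± 0.18 (SE) with a limma adjusted p of 0.292 without and 0.0388 with the block. An exact permutation test of these 6 samples gives 0.1, the smallest p the design allows. Leaving out 1 sample at a time kept the log2 difference between 0.51 and 0.80. Csf1r, the receptor tyrosine kinase for CSF1, was far lower, at 2.15, 3.40 and 4.63 FPKM in AdGFP and 4.40, 4.50 and 5.31 FPKM in AdCre. Its AdGFP 3 value lay above AdCre 1 and AdCre 2, so the groups overlapped, although each AdCre sample was above the AdGFP sample of its number (log2 difference 0.53 ± 0.27, limma adjusted p 0.580, 0.133 with the block). Per length of transcript, Csf1 was between 12.4 and 26.4 times the level of Csf1r in the 6 samples. Of the Csf1r exon bases, 15.1% lie opposite another gene (Hmgxb3), and the strand setting of the counts is not given. Spi1, which encodes PU.1, was at 1.01, 1.26 and 1.75 FPKM in AdGFP and 1.26, 1.75 and 2.24 FPKM in AdCre, again higher in AdCre in each pair and overlapping between groups.

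The leukocyte surface and cytoskeleton genes were low and followed the replicate number. Cd53, a tetraspanin of leukocytes and the highest of the group on average, was at 1.46, 6.11 and 9.18 FPKM in AdGFP and 2.67, 8.62 and 8.93 FPKM in AdCre. Both number 1 samples were the lowest of their groups, and the AdCre 3 value was slightly under that of AdGFP 3. Laptm5, a lysosomal membrane protein of blood cells, was at 1.34, 5.25 and 7.23 FPKM in AdGFP and 2.83, 7.43 and 9.17 FPKM in AdCre. Adgre1, which encodes the macrophage antigen F4/80, was at 1.01, 3.01 and 4.13 FPKM in AdGFP and 1.18, 3.43 and 4.04 FPKM in AdCre, nearly the same in both groups (log2 difference 0.12 ± 0.61). Coro1a, an actin-binding protein of leukocytes, and Cd14, a co-receptor for bacterial lipopolysaccharide, had log2 differences of 0.30 ± 0.47 and 0.04 ± 0.62. None of these 5 passed in either fit, and the blocked unadjusted p was below 0.05 for 2 of them (Cd53 and Laptm5). Ptprc, the pan-leukocyte phosphatase CD45, held only 51, 97 and 155 reads in AdGFP and 74, 157 and 232 reads in AdCre, and Aif1, the calcium-binding protein IBA1, held between 0 and 11 reads. Both were below the level tested.

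The 3 chains of C1q, the molecule that starts the classical complement pathway, lie side by side on chromosome 4 and had the same order of samples within each group. C1qb (chr4:136880129-136886187, minus strand) was at 4.87, 14.4 and 22.8 FPKM in AdGFP and 7.63, 20.1 and 29.8 FPKM in AdCre. In each pair AdCre was above AdGFP, by 1.57, 1.40 and 1.31 times, while the spread between numbers was larger than that between groups. The log2 difference was 0.50 ± 0.67 (SE) in the fit with group alone, with a limma adjusted p of 0.878, and 0.50 ± 0.09 with the block, with an adjusted p of 0.0346. Without AdGFP 1 it was -0.12 without the block. C1qa was at 3.62, 15.8 and 22.4 FPKM in AdGFP and 6.06, 17.2 and 28.9 FPKM in AdCre and C1qc at 2.28, 8.25 and 11.7 FPKM in AdGFP and 3.43, 9.45 and 13.6 FPKM in AdCre, both higher in AdCre in all 3 pairs but with adjusted p of 0.126 and 0.141 with the block. The chains kept to a narrow ratio per length. C1qa was between 0.743 and 1.10 times C1qb, and C1qc between 0.449 and 0.575 times C1qb, while C1qb itself varied from 4.87 to 29.8 FPKM.

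Of the 6 Fc receptors and ITAM adaptors, 5 were higher in AdCre in all 3 pairs, and 0 passed. Fcgr1, the high-affinity receptor for IgG, was at 0.266, 0.655 and 1.10 FPKM in AdGFP and 0.543, 1.72 and 2.34 FPKM in AdCre, from 17, 43 and 70 reads and 45, 115 and 168 reads, respectively. AdCre exceeded AdGFP in each pair, by 2.04, 2.63 and 2.14 times, and AdCre 1 lay within the AdGFP range. The log2 difference of 1.04 ± 0.62 was the third largest of the 33, and the limma adjusted p was 0.651, or 0.0519 with the block, just outside the threshold that Lyz2, at 0.0497, was just inside. Tyrobp, the adaptor DAP12 and the gene of the group with the highest mean, was at 4.25, 10.2 and 9.67 FPKM in AdGFP and 6.55, 10.3 and 14.4 FPKM in AdCre, with nearly equal values in both number 2 samples. Fcer1g, the gamma chain of Fc receptors, was at 2.41, 9.02 and 14.02 FPKM in AdGFP and 5.82, 8.64 and 13.96 FPKM in AdCre, with the clear difference between the number 1 samples. Fcgr3, an activating IgG receptor, had pair differences of 1.15, 0.40 and 0.51 on the log2 scale, and Fcgr2b, the inhibitory one, of 0.68, 0.20 and 0.27. Of the 50-base words of Fcgr3, 9.58% also occur in other genes, Fcgr2b first, so that reads could be split between them. Trem2, a lipid-binding receptor that signals through DAP12, was between 0.589 and 2.20 FPKM.

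The lysosomal, protease and pore genes included the most abundant transcripts of the list. Lyz2 (chr10:117277331-117282321, minus strand), the lysozyme of macrophages, was at 31.5, 149.5 and 191 FPKM in AdGFP and 53.9, 202 and 239.6 FPKM in AdCre. The number 1 samples were several times lower than the others, and AdCre was above AdGFP in each pair, by 1.71, 1.35 and 1.25 times. The log2 difference was 0.51 ± 0.81 (SE) with a limma adjusted p of 0.902, and 0.51 ± 0.10 with the block, with an adjusted p of 0.0497. Of its 50-base words, 15.4% occur in other genes, Lyz1 first, so part of its reads could be assigned elsewhere. Gpnmb (chr6:49036546-49070929, plus strand), a transmembrane glycoprotein of macrophages that other cells can also express, was at 14.9, 33.4 and 29.7 FPKM in AdGFP and 29.3, 45.2 and 40.7 FPKM in AdCre. AdCre 1 was under AdGFP 2 and AdGFP 3, so the groups overlapped, but each pair differed the same way, by 1.97, 1.35 and 1.37 times (log2 difference 0.62 ± 0.32, limma adjusted p 0.594, and 0.0477 with the block). Cd68, a glycoprotein of macrophage lysosomes, was at 5.76, 18.2 and 21.8 FPKM in AdGFP and 13.9, 27.8 and 26.7 FPKM in AdCre and higher in AdCre in all 3 pairs, with an adjusted p of 0.0776 with the block. The protease Ctss was at 6.82, 24.7 and 26.6 FPKM in AdGFP and 12.02, 27.8 and 30.01 FPKM in AdCre, and the pore-forming Mpeg1 at 2.31, 8.10 and 9.32 FPKM in AdGFP and 4.61, 9.34 and 12.1 FPKM in AdCre. Lgmn, an asparaginyl protease of lysosomes, behaved otherwise. It was at 96.8, 129 and 121 FPKM in AdGFP and 88.2, 128 and 116 FPKM in AdCre, slightly lower in AdCre in each pair (log2 difference -0.07 ± 0.19), with the number 1 samples lowest but by a small margin.

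**Figure D2:**
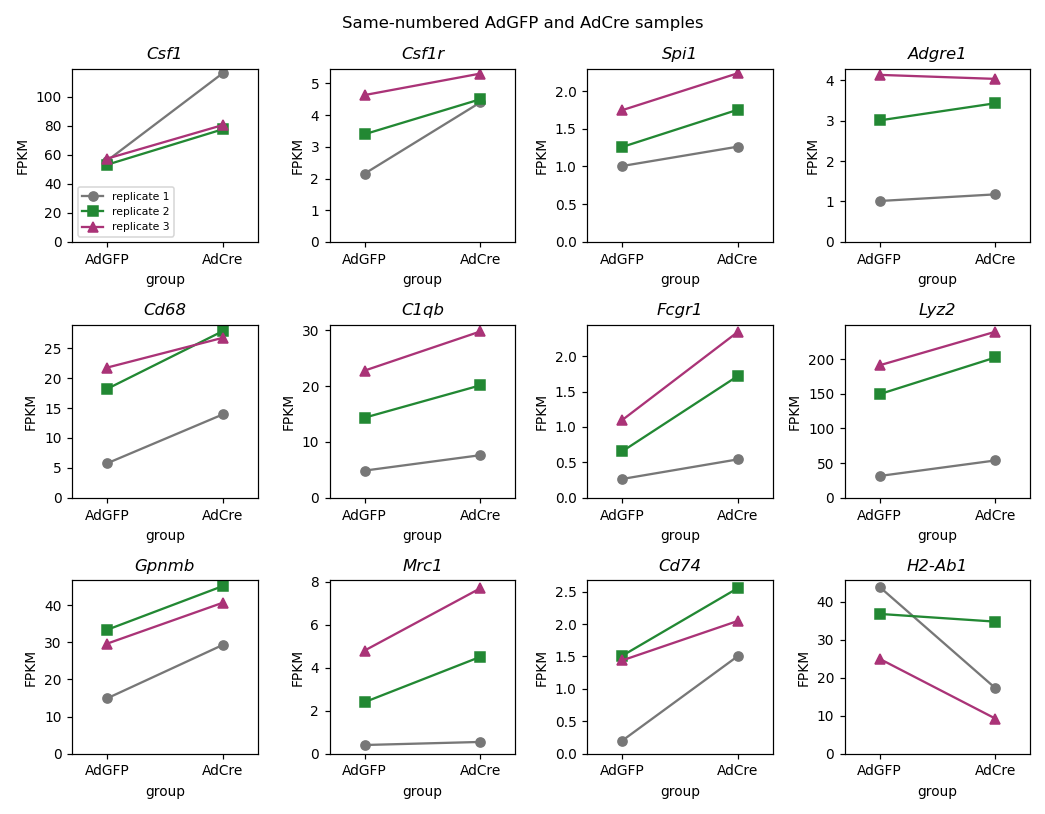
FPKM of 12 genes in AdGFP and AdCre samples, with a line joining the 2 samples of each replicate number (gray circle 1, green square 2, purple triangle 3). Most lines slope up to AdCre while staying apart from each other, those of C1qb and Lyz2 with replicate 1 at the bottom, and the lines of H2-Ab1 slope down. Adgre1 and Mrc1 are plotted in addition to genes named by the rule.

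Among the genes of resident macrophages, the markers Timd4 and Cd163 were at or near 0. Timd4, a receptor for phosphatidylserine, held 0 reads in AdGFP and at most 1 read in any AdCre sample, and Cd163, the hemoglobin scavenger receptor, held 2, 0 and 1 reads in AdGFP and 3, 3 and 8 reads in AdCre, without overlap but below the level tested. Mrc1, the mannose receptor CD206, was at 0.406, 2.40 and 4.80 FPKM in AdGFP and 0.549, 4.51 and 7.70 FPKM in AdCre. It had one of the widest spreads within a group, about as wide in AdCre as in AdGFP, and was higher in AdCre in each pair (adjusted p 0.0684 with the block). Pf4, the chemokine CXCL4, was the highest of the group, at 3.31, 11.05 and 12.2 FPKM in AdGFP and 3.72, 18.05 and 16.2 FPKM in AdCre. Its number 1 samples were nearly equal, and the others were higher in AdCre. Lyve1, a receptor for hyaluronan that lymphatic endothelium also makes, had a log2 difference of 0.12 ± 0.39. Folr2, a folate receptor, was at 0.628, 0.408 and 0.262 FPKM in AdGFP and 0.424, 0.701 and 0.700 FPKM in AdCre, from at most 30 reads, and 63.1% of its exon bases lie opposite another gene. Folr2 was the gene least tied to the replicate number.

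Clec4n, the fungal receptor Dectin-2, was almost without reads in AdGFP 1. It held 1, 77 and 79 reads in AdGFP and 18, 131 and 170 reads in AdCre, that is, 0.0285, 2.14 and 2.26 FPKM in AdGFP and 0.396, 3.57 and 4.32 FPKM in AdCre. AdCre was above AdGFP in each pair, and the log2 difference was 1.19 ± 1.31 (adjusted p 0.840, and 0.0676 with the block). Ms4a7 and Ms4a6c, of the MS4A family of membrane proteins, were below the level tested, with 30 to 73 and 10 to 45 reads. Of the phagocyte NADPH oxidase, Cybb, the catalytic subunit, was at 0.606, 2.04 and 2.07 FPKM in AdGFP and 0.989, 2.69 and 2.99 FPKM in AdCre and Ncf1, a cytosolic subunit, at 0.420, 0.990 and 1.81 FPKM in AdGFP and 0.460, 1.16 and 1.66 FPKM in AdCre. Cybb was higher in AdCre in all 3 pairs and Ncf1 in pairs 1 and 2, and neither passed.

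The MHC class II genes differed from each other in direction, and 0 passed. H2-Ab1, which encodes the beta chain of I-A, was at 43.9, 36.9 and 25.00 FPKM in AdGFP and 17.3, 34.8 and 9.26 FPKM in AdCre. It was lower in AdCre in each pair, at 0.393, 0.945 and 0.370 times AdGFP in pairs 1, 2 and 3, and AdCre 2 lay within the AdGFP range (log2 difference -0.95 ± 0.46, limma adjusted p 0.560, and 0.0966 with the block, though it passed in 2 of 12 alternatives of the blocked fit). H2-Aa, the alpha chain that pairs with this beta chain, held only 0, 10 and 8 reads in AdGFP and 0, 12 and 2 reads in AdCre. H2-Eb1, the beta chain of I-E, was at 4.27, 2.40 and 1.27 FPKM in AdGFP and 2.69, 2.62 and 2.26 FPKM in AdCre, higher in AdGFP 1 than in the other 5 samples. Cd74, the invariant chain that escorts class II molecules, was at 0.201, 1.51 and 1.44 FPKM in AdGFP and 1.51, 2.55 and 2.05 FPKM in AdCre, from 7, 54 and 50 reads and 68, 93 and 80 reads, respectively, with AdGFP 1 far below the rest (log2 difference 1.21 ± 0.65, limma adjusted p 0.608, and 0.135 with the block). Per length, H2-Ab1 was between 4.52 and 219 times the level of Cd74, and both H2-Ab1 and H2-Eb1 were highest in AdGFP 1, where most other genes of the list were lowest. The reads of H2-Ab1, H2-Aa, Cd74, Csf1r and Mpeg1 did not come out whole with the annotated exon lengths and are approximate.

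Across the 33 tested genes, 22 were higher in AdCre in all 3 pairs, where 23.9% of all genes were, and 2 were lower in all 3 (Lgmn and H2-Ab1), where 24.5% of all genes were. The median log2 difference was 0.66 in pair 1, 0.40 in pair 2 and 0.34 in pair 3, with 29, 30 and 24 of 33 genes above 0. The largest differences of single pairs were those of Cd74 and Clec4n in pair 1, which start from 7 reads and 1 read in AdGFP 1.

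**Figure D3:**
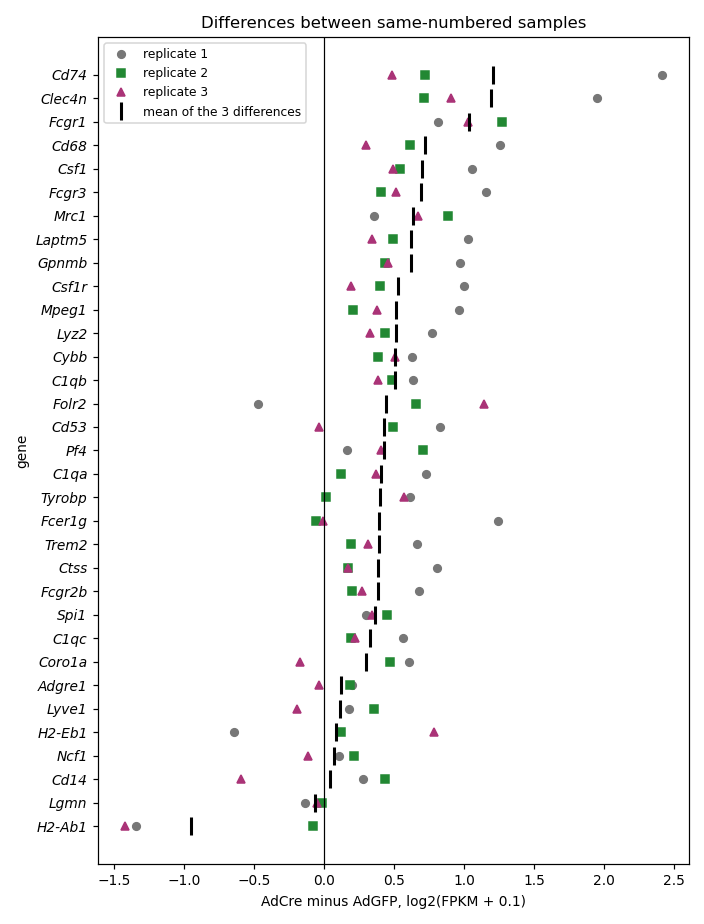
AdCre minus AdGFP on the log2(FPKM + 0.1) scale for each of the 33 tested genes, with 1 point per pair of same-numbered samples and a bar at the mean. Points lie mostly right of 0, those of Lgmn and H2-Ab1 lie left of it, and pair 1 is often the farthest out.

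The replicate number accounted for more of the variation of these genes than the group did. Both number 1 samples were the lowest of their group for 29 of 33 genes, against 25.9% of all genes tested. Other lists shared this, with 13 of 13 other complement genes, 17 of 22 lysosomal genes and 14 of 18 other surface and phagocytosis genes. So did 8 of 12 ITAM signaling genes, 9 of 14 toll-like receptor genes and 4 of 6 other NADPH oxidase genes. Of the cell type markers, it held for 7 of 10 endothelial and 6 of 10 fibroblast markers. In others it was rarer, with 1 of 10 cardiomyocyte markers, 2 of 9 epicardial markers and 2 of 13 macrophage transcription factors. Between these lay 3 of 10 other MHC class II genes, 4 of 10 mural markers and 4 of 8 CSF1 receptor ligands and myeloid growth factors. Of the sum of squares of the log2 values over the 6 samples, a median of 88.1% lay between replicate numbers and 7.60% between groups, against 59.2% and 16.0% over all genes. In 28 of 33 genes the replicate number took more than 50% (59.7% of all genes). At the top stood Adgre1 and Ncf1, and at the bottom Folr2 and Csf1, the 2 genes in which the group took more than the replicate number. The genes of the list share libraries, so their agreement does not add replicates.

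**Figure D4:**
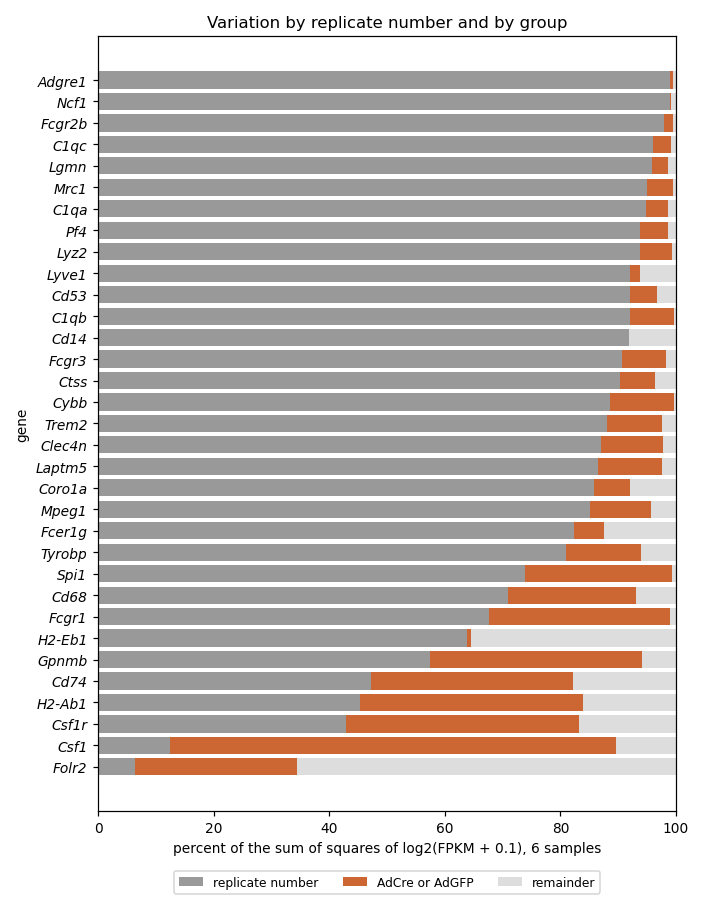
Share of the sum of squares of log2(FPKM + 0.1) over the 6 samples that lies between replicate numbers (dark gray), between AdCre and AdGFP (orange) and in the remainder (light gray), for each of the 33 tested genes. The dark gray part fills most of the bar in all but a few genes at the bottom, where Csf1 is mostly orange.

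Summed levels of markers of other cells also differed between groups or numbers. With the block, 2.64% of all genes passed higher and 3.51% lower, and 7.36% were higher without overlap, which are the shares to set beside the counts that follow. The sum over 35 of the 40 genes, without Csf1, Lgmn, Lyz2, Gpnmb and H2-Ab1, which were left out after their levels were seen because they would outweigh the rest, was 54.4, 169.8 and 216 FPKM in AdGFP 1, 2 and 3 and 91.9, 218 and 267 FPKM in AdCre. Cardiomyocyte markers summed to 7699, 5638 and 4397 FPKM in AdGFP and 2822, 4040.2 and 2329 FPKM in AdCre, with all 10 lower in mean in AdCre and 5 passing with the block. Fibroblast markers summed to 2689.7, 3618 and 4788 FPKM and to 2413, 3169.8 and 3478 FPKM, with 8 of 10 lower in AdCre (3 passed lower and 1 higher with the block). Endothelial markers summed to 101, 121 and 155 FPKM and to 146, 164 and 215 FPKM, with 10 of 10 higher in AdCre and 4 passing with the block. Mast cell markers summed to 8.08, 9.53 and 10.2 FPKM and to 23.4, 32.2 and 28.6 FPKM, most of it from Mcpt4, a protease, at 5.44, 7.22 and 6.59 FPKM in AdGFP and 16.5, 25.4 and 20.8 FPKM in AdCre. Of the 10 mast cell markers 4 were tested, and Mcpt4, Cma1 and Gata2 passed with the block, all higher, while the defining genes Cpa3 and Tpsb2 were below the level tested. Of the epicardial markers, whose sums ran between 263 and 520.1 FPKM and overlapped between groups, 3 of 9 tested were higher with the block (Krt8, Krt18 and Aldh1a2, all without overlap) and 1 was lower (Lrrn4). Mural markers summed to between 1188 and 1996 FPKM, and 0 of 10 passed with the block. Most of these sums came from Acta2 (665 to 1122 FPKM) and Des (211 to 666 FPKM), while Myh11 and Tagln were at most at 2.85 and 3.55 FPKM. Dendritic cell markers summed to 2.93, 3.06 and 3.12 FPKM in AdGFP and 3.86, 4.31 and 4.54 FPKM in AdCre, without overlap. Neither of the 2 tested passed, and Ccr7, below the level tested, held 0 reads in each AdGFP sample and 24, 12 and 29 reads in AdCre. Of the B cell markers 3 were tested, with a median log2 difference of -0.06, and only Fcmr was higher in AdCre. Fcmr passed with the block, at 0.280, 0.0227 and 0.0935 FPKM in AdGFP and 2.05, 1.07 and 0.499 FPKM in AdCre (adjusted p 0.0390). The part of these cells in the differences of the macrophage genes was not tested.

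**Figure D5:**
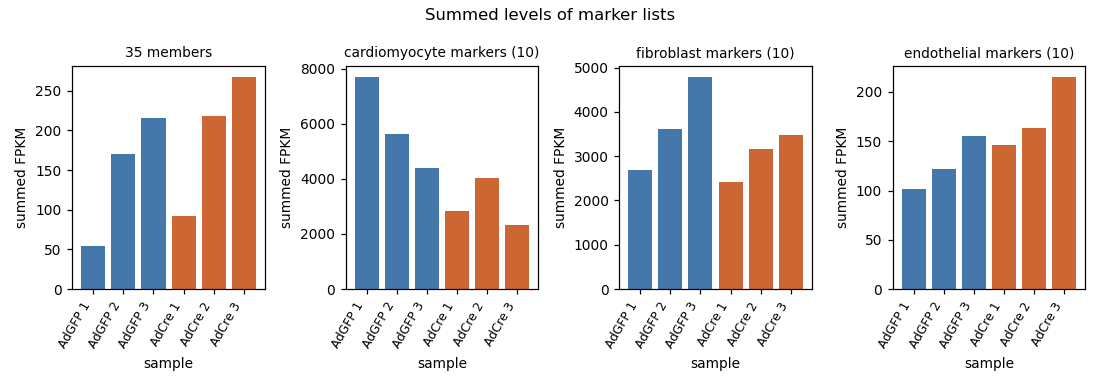
Summed FPKM in each sample of 35 macrophage and myeloid genes and of 10 markers each of cardiomyocytes, fibroblasts and endothelial cells (blue bars AdGFP, orange bars AdCre). The sum of the 35 genes is lowest in both number 1 samples, cardiomyocyte sums are lower in AdCre than in AdGFP, and endothelial sums are lowest in AdGFP 1.

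Genes of the same pathways outside the list were read in the same way, from 9 lists written with earlier results of these data known. In the fit with group alone 0 of them passed in any list. For the rest of the complement system, 13 of 18 genes were tested and 2 passed with the block, both higher in AdCre (2.64% of all genes). At a blocked unadjusted p under 0.05, 2 were higher and 6 lower (11.5% and 13.3% of all genes), and 6 were lower in all 3 pairs (24.5% of all genes). The 2 that passed were Cfp, which encodes properdin (0.64 ± 0.11, adjusted p 0.0354), and C5ar1, a receptor for C5a (0.65 ± 0.13, adjusted p 0.0442). Cr1l, the complement regulator Crry, differed by -0.19 ± 0.13, and the median of the list was -0.19. For other genes of MHC class II presentation, 10 of 17 were tested with a median of 0.03. Only Rfxank, a subunit of the RFX factor that binds class II promoters, passed with the block, and it was lower (-0.51 ± 0.09, adjusted p 0.0358). H2-DMa, which loads peptides, and the co-stimulator Cd80 differed by 0.68 ± 0.47 and 0.75 ± 0.22, and Ciita, the class II transactivator, was at most at 0.0946 FPKM.

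Among CSF1 receptor ligands and myeloid growth factors, 8 of 13 were tested and 0 passed with the block. Il34, the other ligand of CSF1R, was at 1.26, 0.866 and 1.06 FPKM in AdGFP and 1.67, 1.90 and 1.44 FPKM in AdCre, without overlap, but its adjusted p was 0.141 with the block. Csf2ra and Kitl had log2 differences of -0.32 ± 0.15 and -0.30 ± 0.18. For ITAM signaling, 12 of 19 were tested and 0 passed, with differences of -0.51 ± 0.18 for the phospholipase Plcg2, 0.33 ± 0.16 for the kinase Lyn and 0.44 ± 0.27 for the phosphatase Ptpn6. For the other NADPH oxidase genes, 6 of 11 were tested, all 6 were above 0 and 0 passed. Ncf4 and Cyba differed by 0.86 ± 0.47 and 0.24 ± 0.15. Toll-like receptor genes (14 of 16 tested) and macrophage transcription factors (13 of 16 tested) had 0 passing, with medians of 0.10 and 0.17. Tlr4, Tlr5 and Ticam1 differed by -0.23 ± 0.14, -0.41 ± 0.27 and -0.11 ± 0.12, and Cebpa, Irf8 and Runx1 by 0.43 ± 0.16, 0.63 ± 0.27 and 0.46 ± 0.25.

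For other genes of macrophage surface and phagocytosis, 18 of 30 were tested, with a median of 0.30, and the 2 that passed with the block were lower in AdCre. They were Cd36, a fatty acid transporter that cardiomyocytes and endothelium also express (-0.99 ± 0.08, adjusted p 0.00969), and the iron exporter Slc40a1 (-0.81 ± 0.16, adjusted p 0.0485). The receptor tyrosine kinase Axl and Arhgdib differed by 0.37 ± 0.14 and 0.32 ± 0.17 and did not pass. All 22 lysosomal and lipid-handling genes were tested, and their median was 0.13. With the block 3 were higher, namely Ctsh, a cathepsin (0.49 ± 0.08, adjusted p 0.0290), the tetraspanin Cd9 (0.55 ± 0.07, adjusted p 0.0233) and Grn, which encodes progranulin (0.40 ± 0.08, adjusted p 0.0470). Lpl, lipoprotein lipase, was lower (-0.58 ± 0.07, adjusted p 0.0198). Many cell types of the heart express these lysosomal genes.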

How the data were processed

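Poly-T beads selected messenger RNA, and random hexamers primed the cDNA. The deposited table holds FPKM values that the authors made for each of the 6 samples, with no pooling. The submitters' processing notes name fastp, STAR 2.5, HTSeq 0.6.1 and mm10. Annotation and strand setting are not given in the sources used here. Of 54532 gene IDs, 54495 are in GENCODE M21, which gave symbols, exon lengths and coordinates, and 37 are not. With the GENCODE lengths, FPKM times exon length gave whole reads (within 0.05 reads) for 96.6% to 96.8% of the genes above 0 in each sample. Where a gene failed, the nearest length that gave whole reads was searched for and used if found. After this step, 97.5% of the 28445 genes above 0 were whole in all samples, a share that the search raised by its design. FPKM are not counts, so the reported tests use log2 FPKM, and voom on the recovered reads is an alternative.

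The 13794 genes that averaged 0.5 FPKM or more were tested as log2(FPKM + 0.1) in limma 3.58.1 (R 4.3.3; lmFit, eBayes with an intensity trend, two-sided), with Benjamini-Hochberg adjustment over all of them and a threshold of 0.05. Fold changes on this scale understate those of low genes. The fit had group alone. Deviations from group means correlated at 0.268 to 0.568 between same-numbered samples and at -0.497 to 0.0364 between others, so same-numbered samples were treated as pairs, from the values alone, and a fit with the replicate block is given where it changes a call. P-values measure the spread between these samples, whose origin in animals or litters the labels do not give. Samples held 25.3 to 32.4 M (megareads), a depth that limits genes with few reads. The spread between samples limits precision too, as for Lyz2, with 1025 to 8736 reads and an SE of 0.81 in the fit with group alone.

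The members and lists were chosen with earlier results of these data known. Members were named with every sample's value if they passed in either fit, were among the 10 smallest p of the fit with group alone, or had the highest mean of their role. Others (Laptm5, Adgre1, C1qa, C1qc, Fcer1g, Ctss, Mpeg1, Lgmn, Mrc1, Ncf1, H2-Eb1 and those given by reads), the level ratios and the sum of 35 genes were chosen after their values were seen. Of each pathway list, the 3 genes with the smallest p and those that passed with the block were named, except 1 gene that is not reported here. Shared sequence was counted over 50-base words of transcripts. The fits were tested on data simulated with the same dispersion for every gene, a setting that need not match the spread of these genes. There the blocked fit exceeded its nominal error rate. In simulated data without pair effects, the fit with group alone did so too. Alternatives covered pseudocounts, filters, scalings, the trend, the block, voom and left-out samples.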

Additional observations from a re-analysis of the deposited data

How the results depend on the processing

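Settings without the block moved the count over all genes, 1 in the fit reported, to 3 with a pseudocount of 1, 0 with no filter on low values, 4 without the intensity trend, 0 with voom on the recovered reads, and between 0 and 2 when 1 sample was left out. The count of members stayed at 0 in each of these. With the replicate block, 848 genes passed (364 higher in AdCre, 484 lower), among them 4 members and 9 genes of the other pathway lists. The block with no filter gave 17 genes, 0 members and 1 list gene, and without the trend it gave 0 of each. Rescaled to TPM the block gave 875 genes (538 higher, 337 lower), 6 members and 10 list genes, with the median of all genes at 0.09. With voom it gave 1704, 13 and 29. Settings of the block added after the data were seen gave 778, 4 and 8 with median centring, 762, 4 and 9 with quantile normalization, 784, 5 and 10 with a pseudocount of 1, 782, 3 and 8 with a pseudocount of 0.01, and 922, 4 and 12 with a mean of at least 1 FPKM. Without replicate 1 of both groups the block gave 772, 6 and 9, without replicate 2 it gave 149, 1 and 1, and without replicate 3 it gave 1, 0 and 0. Of 12 such alternatives, Csf1 and Gpnmb passed in 8, C1qb in 7, Lyz2 in 5, Fcgr1 and Mrc1 in 3 and Fcgr3, Clec4n and H2-Ab1 (lower) in 2, and 6 others in 1 each. The cause of these differences was not tested.

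The median log2 difference of the members, 0.42, was between 0.29 and 0.53 under the settings that kept all samples or left out a pair, and between -0.17 and 0.80 with 1 sample left out. Of these fits, that without AdGFP 1 reversed it. It reversed 22 of the 33 tested members, and the others reversed between 1 and 7. Among the 16 members named by the rule it reversed 7, whose values with 1 sample left out ran from -0.33 to 0.99 for Cd53, -0.12 to 1.06 for C1qb, -0.0021 to 0.69 for Tyrobp, -0.30 to 1.19 for Lyz2, -0.17 to 1.15 for Pf4, -0.20 to 2.20 for Clec4n and -0.032 to 0.98 for Cybb. Depth limits members with few reads, such as Timd4, Cd163 and Aif1, which were below the level tested.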

Other observations

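A pair of level ratios per length of transcript was noticed after the values were seen, picked from several such ratios, and was not tested. Of those left out of the pair, H2-Ab1 over Cd74 did not overlap between groups (17.4 to 219 in AdGFP and 4.52 to 13.6 in AdCre). The rest overlapped. Fcgr1, the high-affinity IgG receptor, was 0.263, 0.218 and 0.265 times the level of Adgre1 (F4/80) in AdGFP 1, 2 and 3 and 0.461, 0.501 and 0.580 times in AdCre 1, 2 and 3, so the groups did not overlap, from 17 to 168 reads of Fcgr1. Mrc1, the mannose receptor, was 0.402, 0.798 and 1.16 times the level of Adgre1 in AdGFP and 0.467, 1.31 and 1.91 times in AdCre, lowest in the number 1 sample of both groups and overlapping between them.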
